A study of Homo sapiens with 4 samples.

Results

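GLIPR1, GLIPR2, CRISPLD1, CRISPLD2 and PI15 encode proteins with a CAP domain, and their transcripts were read in A549 cells with and without depletion of NUPR1. All 5 genes were rows of the deposited count table, out of 19399 rows used. The set was chosen by the measured ratio of GLIPR1, which was among the largest decreases in the NUPR1 knockdown, and by kinship of the other members to GLIPR1. The ratio of GLIPR1 is therefore a description and was not tested.

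A549 is an established human lung adenocarcinoma line, labelled as alveolar adenocarcinoma cells. One group carried a knockdown of p8, now named NUPR1, which encodes a small nuclear protein induced by stress. The other group was labelled as control. The sources used here do not give the knockdown reagent or the kind of control. Each group comprised 2 libraries of polyadenylated RNA, 1 single-end and 1 paired-end, but the tables hold 1 column per group, so no value below has a replicate and no difference was tested. Levels are given as reads and as CPM (reads scaled to library size with TMM factors) with 95% Poisson intervals. Each ratio is the log2 of the knockdown level divided by the control level and carries a 95% exact conditional interval. Both kinds of interval cover counting error only.

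The CAP domain is named after cysteine-rich secretory proteins, antigen 5 of insect venom and the pathogenesis-related proteins of plants. Most members are secreted and held together by disulfide bonds, whereas GLIPR2 has no signal peptide and sits on the cytosolic face of the Golgi, where it binds caveolin-1 and the autophagy protein Beclin 1. GLIPR1 was first described in glioblastoma and has been studied both as a p53 target lost in prostate cancer and as a promoter of glioma invasion. CRISPLD1 and CRISPLD2 add LCCL domains to the CAP domain, and CRISPLD2 is a glucocorticoid-inducible gene of the developing lung. PI15 was purified as a trypsin inhibitor from glioblastoma cultures.

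Of the 5 members, GLIPR1 and GLIPR2 matched the first PROSITE signature of the CAP domain, and CRISPLD1, CRISPLD2 and PI15 did not. GLIPR1, its chromosomal neighbour GLIPR1L1 and GLIPR2 are shown because they carry it, with the 33 bases that encode the 11-residue signature in capitals and 15 flanking bases on each side in lower case. The letters are from GENCODE release 29 transcripts (GRCh38, plus strand), and each stretch joins 2 coding exons across an intron. The stretches span chr12:75482050-75490438 for GLIPR1, chr12:75343909-75347654 for GLIPR1L1 and chr9:36150934-36162408 for GLIPR2.
GLIPR1: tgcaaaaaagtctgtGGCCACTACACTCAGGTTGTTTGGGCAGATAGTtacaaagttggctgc
GLIPR1L1: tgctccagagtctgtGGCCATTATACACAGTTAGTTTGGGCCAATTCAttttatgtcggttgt
GLIPR2: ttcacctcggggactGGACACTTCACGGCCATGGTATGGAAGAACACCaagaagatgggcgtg

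Within the signature GLIPR1 and GLIPR1L1 have 23 of 33 bases and 9 of 11 encoded residues in common. GLIPR1 and GLIPR2 have 17 of 33 bases and 5 of 11 residues in common. The second signature, of 36 bases, was found in GLIPR1 and CRISPLD2, and also in CRISPLD1 and PI15, whose letters are not printed here. GLIPR2 has no match to it. The stretches of GLIPR1 and CRISPLD2 span chr12:75490478-75495601 and chr16:84850643-84854753 (GRCh38, plus strand), again across an intron, and show how far the kinship of the secreted members goes.
GLIPR1: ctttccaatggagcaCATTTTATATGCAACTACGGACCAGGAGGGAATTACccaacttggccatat
CRISPLD2: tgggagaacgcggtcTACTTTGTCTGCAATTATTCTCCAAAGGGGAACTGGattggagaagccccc

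These have 21 of 36 signature bases and 7 of 12 encoded residues in common. Of the 15 human CAP genes examined, 7 matched the first signature and 8 the second. An intron interrupts the second signature after base 26 in all 8 of its genes, GLIPR1, CRISPLD1, CRISPLD2 and PI15 among them. In the first signature the intron falls after base 15 in 6 of the 7 genes, including GLIPR1 and GLIPR1L1. In GLIPR2 it falls after base 1. GLIPR2 also differs in its cysteines, with 2 in 154 residues, against 11 in 266 for GLIPR1, 13 in 258 for PI15, 25 in 500 for CRISPLD1 and 26 in 497 for CRISPLD2. In local protein alignments the 10 pairs of members were 29% (GLIPR2 and CRISPLD1) to 64.9% (CRISPLD2 and PI15) identical.

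GLIPR1 was the dominant member in control cells and was much lower after NUPR1 knockdown. The control column held 1268 reads of GLIPR1, 63.1 CPM (59.7 to 66.7). The knockdown column held 143 reads, 8.52 CPM (7.18 to 10), where the control level would have given 1060 reads. The levels do not overlap by counting error. Such ranges also occur at small ratios, as for the keratin gene KRT18 at 0.18 (0.17 to 0.19), and their share among all genes was not counted. The level was 7.41-fold lower after knockdown, with a log2 ratio of -2.89 (-3.15 to -2.64).

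Among 10689 genes with a mean of at least 5 CPM, 1 gene had a lower log2 ratio than GLIPR1. Of the 500 genes nearest to GLIPR1 in mean CPM, 0 had a lower ratio, and their 5th and 95th percentiles were -0.42 and 0.51. Of all 10689 genes, 1.13% were lower after knockdown by 2-fold or more and 0.992% were higher by 2-fold or more. Of the 5 members, GLIPR1 and GLIPR2 had a mean of at least 5 CPM. Of these, 1, GLIPR1, passed 2-fold in the lower direction, which is the contrast by which the set was chosen. NUPR1 itself, the gene targeted, had 71 reads after knockdown against 197 in control, a log2 ratio of -1.21 (-1.63 to -0.81). NUPR1 was thus lower by less than GLIPR1 in these columns.

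GLIPR2, the Golgi member, was at the same level in both columns within counting error. It had 87 reads, 5.18 CPM (4.15 to 6.39), after knockdown and 110 reads, 5.47 CPM (4.5 to 6.60), in control. The log2 ratio was -0.08, with an interval from -0.50 to 0.34 that leaves room for a modest difference either way. Of the 500 genes of like mean CPM, 224 had a lower ratio and 276 a higher one. GLIPR2 therefore lay in the middle of genes at its level.

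CRISPLD1 was the member with the opposite direction. It had 72 reads, 4.29 CPM (3.35 to 5.40), after knockdown and 32 reads, 1.59 CPM (1.09 to 2.25), in control. The ranges do not overlap by counting error, a feature whose share among all genes was not counted. The log2 ratio was 1.43 (0.81 to 2.08), a 2.69-fold higher level. CRISPLD1 was below the 5 CPM minimum, with a mean of 2.94 CPM. Among 13094 genes with a mean of at least 1 CPM, 1.98% were higher after knockdown by 2-fold or more, and 98 genes had a higher ratio than CRISPLD1. Of the 500 genes of like mean CPM, 6 had a higher ratio and their 5th and 95th percentiles were -1.06 and 0.87. The 8 fibroblast and endothelial markers were low, summing to 4.88 CPM after knockdown against 3.23 CPM in control. The endothelial cadherin CDH5 had 18 reads against 3, while LUM (7 against 11), PDGFRB (3 against 5) and PECAM1 (0 against 2) had fewer reads after knockdown. THY1 had 5 reads against 6, DCN 12 against 6 and VWF 10 against 6, and COL3A1 was the most abundant with 27 and 26 reads. The part of such cells in the level of CRISPLD1 was not tested.

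CRISPLD2 and PI15 were at the edge of detection in both columns. CRISPLD2 had 6 reads after knockdown and 7 in control, 0.357 CPM (0.131 to 0.778) and 0.348 CPM (0.140 to 0.718). Its log2 ratio of 0.04 had an interval from -1.81 to 1.83, so a difference inside it was not detectable at this depth. PI15 had 1 and 2 reads, under the floor of 3 reads (0.179 CPM after knockdown and 0.149 CPM in control), and no ratio is given. Neither gene passed the filter on low counts, which the other 3 members passed.

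**Figure D1:**
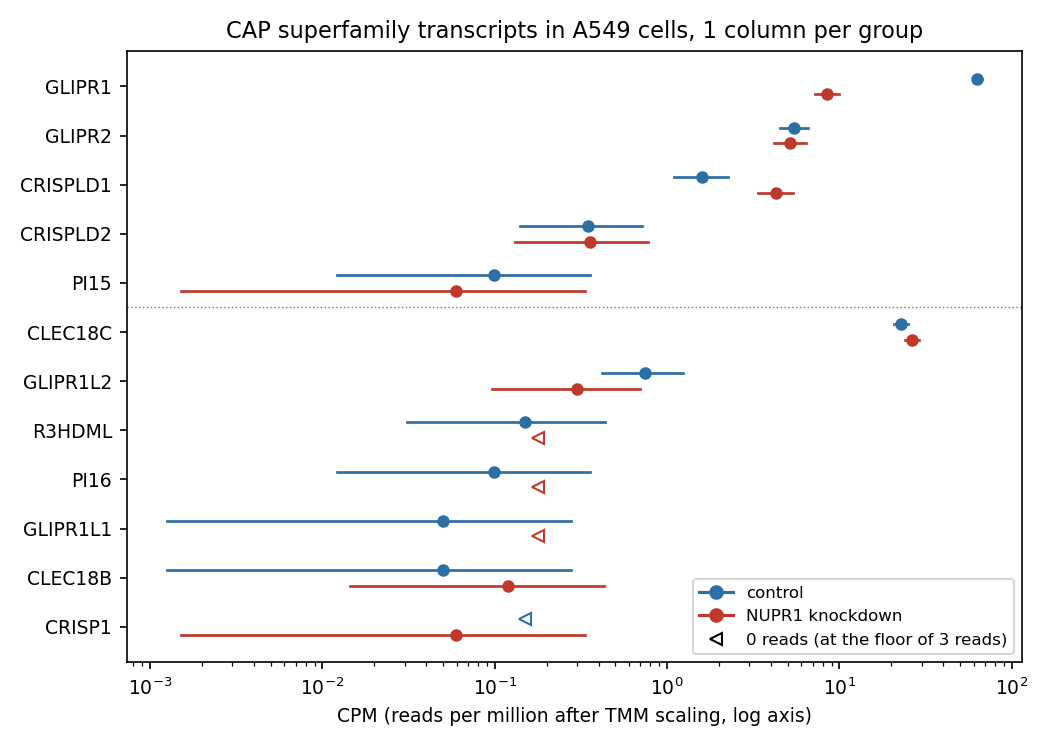
Levels of the 5 members (above the dotted line) and 7 further CAP genes in the control column (blue) and the NUPR1 knockdown column (red), in CPM on a log axis. Points are the values of single columns, bars their 95% Poisson intervals, and open triangles mark 0 reads at the floor of 3 reads. GLIPR1 stands at 63.1 CPM in control and 8.52 CPM in knockdown, while GLIPR2 and CLEC18C nearly coincide between the columns and CRISPLD1 is higher in knockdown.

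The 5 members together summed to 70.6 CPM in control and 18.4 CPM after knockdown. GLIPR1 made up 89.4% of that sum in control and 46.3% in knockdown. Without GLIPR1 the other 4 members summed to 7.51 CPM in control and 9.88 CPM in knockdown. The lower total thus lay in GLIPR1. Of the other 4, CRISPLD1 went from 1.59 CPM in control to 4.29 CPM after knockdown, while GLIPR2, CRISPLD2 and PI15 had overlapping intervals in the columns.

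Compared per length, the order of the family differed between the columns. On the deposited RPKM scale (reads scaled to library size and gene length), GLIPR1 led in control with 15.9 (15 to 16.8), above the C-type lectin CLEC18C with 8.91 (8.11 to 9.77) and GLIPR2 with 1.71 (1.40 to 2.06). CRISPLD1 followed with 0.35 (0.239 to 0.493). The ranges of these 4 genes do not overlap. GLIPR1L2 with 0.21 (0.120 to 0.353) and R3HDML with 0.2 (0.0405 to 0.574) came next and overlap CRISPLD1, and CRISPLD2 with 0.05 (0.0211 to 0.108) was lower. In the knockdown column CLEC18C led with 10.51 (9.55 to 11.5). GLIPR1 with 2.19 (1.85 to 2.58) and GLIPR2 with 1.65 (1.32 to 2.03) overlapped there, and CRISPLD1 with 0.96 (0.751 to 1.21) lay below both. The RPKM of GLIPR1 was above 82.6% of 19378 rows in control and above 49.4% in knockdown. The RPKM of GLIPR2 was above 46.2% and 45.8% of rows.

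The rest of the CAP family in these cells was nearly silent except for CLEC18C. Of 10 further human CAP genes 7 were in the table, and 6 of these had at most 15 reads in either column. GLIPR1L2, a testis gene beside GLIPR1, had 5 reads after knockdown and 15 in control. Its log2 ratio of -1.33 had an interval from -3.14 to 0.21 that includes equal levels. CLEC18C had 442 and 458 reads, 26.3 CPM (23.9 to 28.9) in knockdown and 22.8 CPM (20.7 to 25.0) in control, with a log2 ratio of 0.21 (0.02 to 0.40). The proteins of CLEC18C and CLEC18A are 99.3% identical and their transcripts share an exact run of 924 coding bases, so reads may be split or moved among the CLEC18 copies, and the value of CLEC18C is uncertain. CLEC18B, another copy, had 2 and 1 reads. R3HDML had 0 and 3 reads, PI16, a gene of fibroblasts, 0 and 2, the sperm gene GLIPR1L1 0 and 1, and CRISP1, a protein of the epididymis, 1 and 0. The levels of CRISP2, CRISP3 and CLEC18A were not analysed here.

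GLIPR1 shares short exact stretches with its relatives. Its protein is 30.8% to 49.5% identical to the other 14 CAP proteins in local alignment, and the longest exact run of bases shared between its longest transcript and theirs is 16, with GLIPR1L1. The read length is not given in the sources used here. CRISPLD1 and PI15 share a run of 20 bases.

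**Figure D2:**
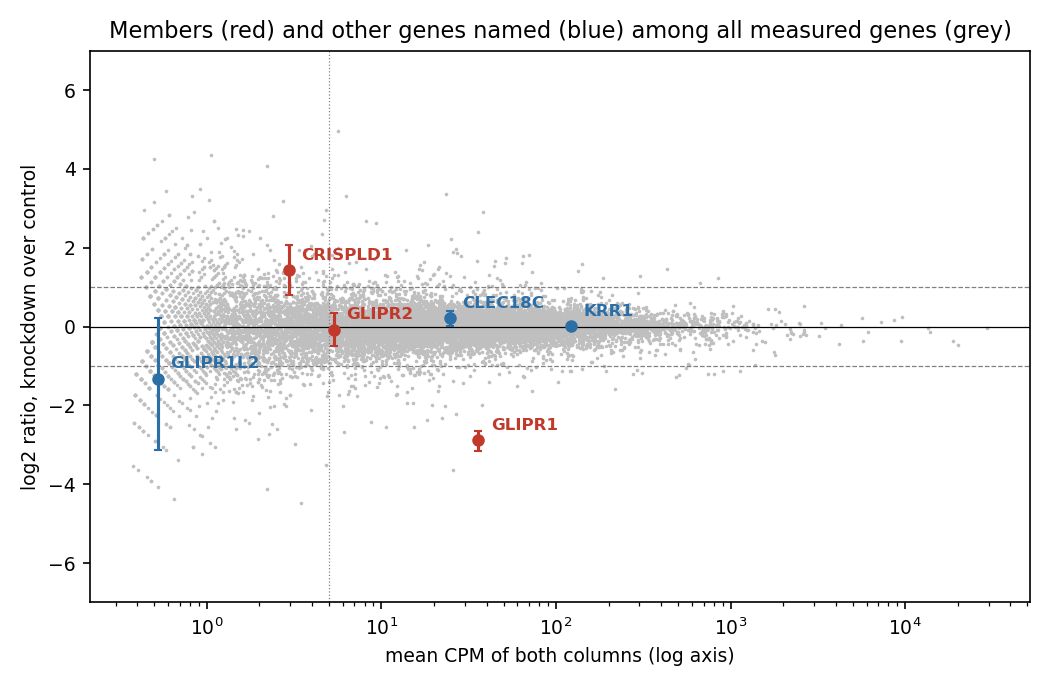
Log2 ratio of knockdown over control against the mean CPM of both columns (log axis) for all measured genes with reads in both columns (grey points). Members are red and other genes named are blue, with 95% counting intervals, dashed lines mark 2-fold and the dotted line 5 CPM. GLIPR1 lies at -2.89, far below the genes at its level, GLIPR2 at -0.08 lies among them, and CRISPLD1 at 1.43 lies near their upper edge.

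GLIPR1 lies in a cluster with GLIPR1L1 and GLIPR1L2 on chromosome 12, and its exons overlap those of KRR1, a gene of ribosome assembly on the opposite strand. In GENCODE release 29, 1516 of the 6273 exonic bases of GLIPR1 (24.2%) are also exonic in KRR1. The deposited length of GLIPR1 is 3978 bases, so the gene model behind the counts may differ, and the part it shares with KRR1 is not known. The counting is not stated to use strand. Without strand, reads from the shared bases cannot be told apart. KRR1 had 121 CPM in both columns (116 to 127 in knockdown, 116 to 126 in control) from 2037 and 2427 reads. Its log2 ratio was 0.01 (-0.08 to 0.09). PHLDA1, the next gene on that side, which encodes a pleckstrin homology-like protein, had -0.30 (-0.45 to -0.16). The low level of GLIPR1 was thus not matched by either of these neighbours. On the other side, GLIPR1L2 had 5 reads after knockdown and 15 in control, with a log2 ratio of -1.33 (-3.14 to 0.21). That interval overlaps the interval of GLIPR1 and also includes equal levels, so these few reads leave the comparison on that side undecided.

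The other members had wider intervals, most of which overlapped those of their neighbours. GLIPR2 on chromosome 9 lies between RECK, an inhibitor of matrix metalloproteinases, with 13.7 CPM after knockdown, 19.4 CPM in control and a ratio of -0.50 (-0.74 to -0.26) on the log2 scale, and CCIN with 1 read in each column. Beyond CCIN, CLTA, the light chain of clathrin, had 0.26 (0.21 to 0.32). Both values lie within or overlap the interval of GLIPR2, and OR2S2, beyond RECK, was not analysed here. CRISPLD1 and PI15 are neighbours on chromosome 8, where CRISPLD1 was higher and PI15 had almost no reads. JPH1, a neighbour on the side of PI15, had 0 reads after knockdown and 2 in control. The flanking genes GDAP1, a mitochondrial protein, and HNF4G, a nuclear receptor, had log2 ratios of 0.70 (0.49 to 0.91) and 0.57 (0.05 to 1.10). Both were in the direction of CRISPLD1 with intervals that overlap its own, while ZFHX4 beyond them had -0.18 (-0.47 to 0.10). CRISPLD2 on chromosome 16 lies between USP10, a deubiquitinase, at -0.04 (-0.13 to 0.06), and ZDHHC7, a palmitoyl transferase, at 0.27 (0.15 to 0.38). KLHL36 and KIAA0513, the next genes outward, had -0.20 (-0.55 to 0.15) and 0.16 (-0.14 to 0.47). All 4 ratios lie within the wide interval of CRISPLD2, which was nearly silent among expressed genes.

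**Figure D3:**
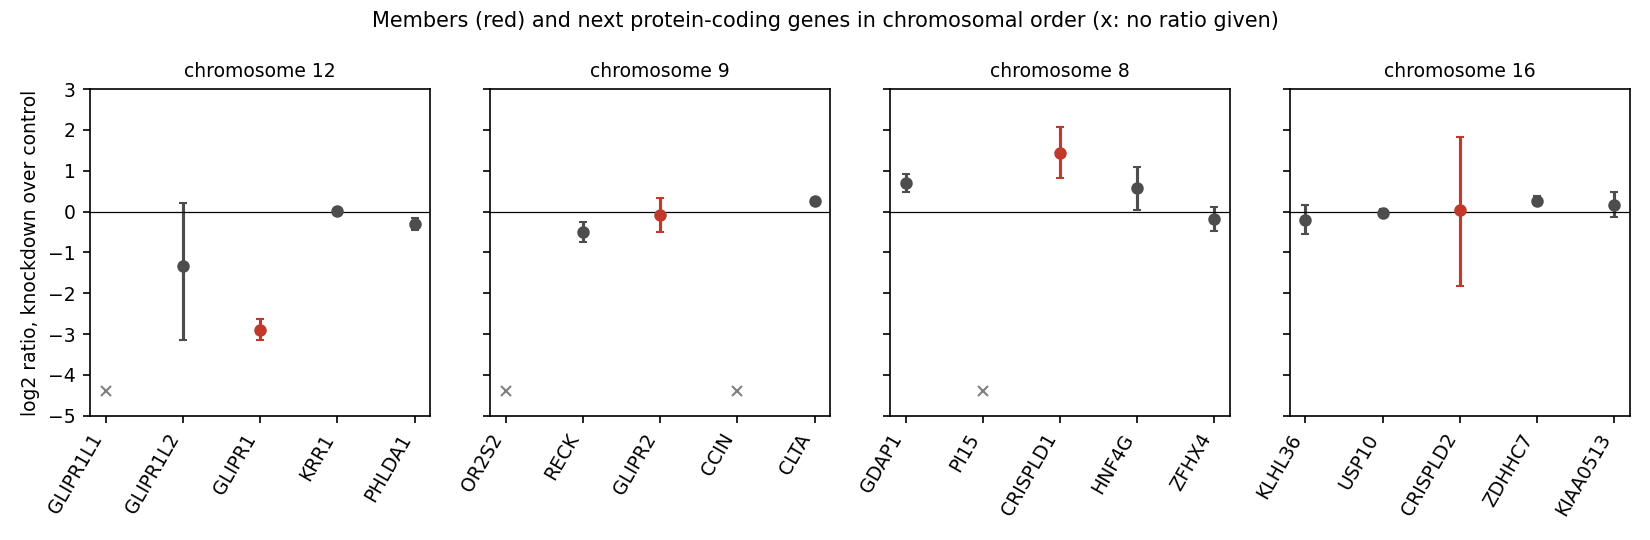
Log2 ratio of knockdown over control for the members (red) and the 2 nearest protein-coding genes on each side (dark grey), in chromosomal order from left to right, with 95% counting intervals. Crosses mark genes with no ratio given, either not in the table or with at most 3 reads in each column. GLIPR1 at -2.89 stands beside KRR1 at 0.01, and CRISPLD1 at 1.43 beside HNF4G at 0.57.

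Genes at the control level of GLIPR1 are listed for scale only, because GLIPR1 was chosen for its low ratio. The 5 genes with the nearest control CPM, all at 63.1 CPM, were NUP188, STEAP3, GRN, KMT2B and MYO6. In the knockdown column they ranged from 54.8 CPM (KMT2B) to 92.4 CPM (GRN), against 8.52 CPM for GLIPR1. By likeness of the log2 ratio over the 2 columns, the nearest genes were CCBE1 at -2.67, INS-IGF2 at -2.55, SDK2 at -2.55, SNAP25 at -2.42 and ANGPTL4 at -2.36. INS-IGF2 overlaps INS and IGF2, so its reads are uncertain. With 2 columns, such likeness says only that the ratios were close.

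Groups of genes tied to the members by earlier work were read in the same columns. They were chosen with results of these data known, so their counts describe the columns and are no independent support. Over all 14175 measured genes the median log2 ratio was 0.00, 9.07% were lower after knockdown by 1.5-fold or more and 7.29% were higher by 1.5-fold or more.

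Targets of the serum response factor SRF and its MRTF co-activators, genes of the actin cytoskeleton for the most part, were lower nearly throughout. SRF is known as a regulator of GLIPR1 in glioma cells. Of 30 measured genes, with SRF itself and the MRTF genes MKL1 and MKL2 included, 29 were lower and 1 higher. Of the 30, 20 (66.7%) were at least 1.5-fold lower, 0 were at least 1.5-fold higher, and the median was -0.86. Of these, 10 were at least 2-fold lower with a mean of at least 5 CPM. TNS1, a focal adhesion protein, stood at -2.02 (-2.55 to -1.52), with 2.38 CPM after knockdown and 9.65 CPM in control. TGFB1I1, a paxillin relative, stood at -1.54 (-1.91 to -1.17), with 4.82 CPM and 14 CPM. The low values of TNS1, JUNB and CTGF were known when the list was written. The actin-associated PDZ and LIM protein PDLIM7 had 30.7 CPM against 88.1 CPM, with -1.52 (-1.66 to -1.38), and the AP-1 subunit JUNB had 11.1 CPM against 31.7 CPM, with -1.52 (-1.76 to -1.28). SRF itself stood at -0.68 (-0.85 to -0.51), with 26.1 CPM after knockdown and 41.6 CPM in control. The exception, FOS, had 45 and 41 reads and 0.39 (-0.25 to 1.04). The ratio of GLIPR1 was below that of each of these genes.

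Targets of p53, the other known regulator of GLIPR1, passed 1.5-fold in 6.45% of genes in each direction. Of all measured genes, 7.29% were higher and 9.07% lower by as much, but these include genes of low counts. Among genes with a mean of at least 5 CPM the 5th and 95th percentiles were -0.56 and 0.52. Of 31 measured targets 23 were higher and 8 (25.8%) lower, against 50% lower among all measured genes. By 1.5-fold or more, 2 targets were higher and 2 lower, and the median was 0.13. The kinase gene PLK3 and the growth arrest gene GADD45A had log2 ratios of -0.71 (-1.09 to -0.34) and -0.70 (-0.82 to -0.57). The death receptor FAS and the pro-apoptotic BBC3 had 0.65 (0.44 to 0.87) and 0.66 (0.41 to 0.91).

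GLIPR1 has also been linked to the turnover of MYC through casein kinase 1 alpha and beta-catenin. Of 13 genes of that machinery 9 were higher and 4 lower, 0 passed 1.5-fold, and the median was 0.08. MYC stood at -0.07 (-0.14 to 0.01), with 154 CPM after knockdown and 161 CPM in control, CSNK1A1 had 0.12 (0.01 to 0.23) and CTNNB1 0.06 (-0.03 to 0.15). AXIN2, a scaffold of the destruction complex and itself a Wnt target, had 0.57 (0.34 to 0.80), the largest ratio of the list.

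Genes tied to GLIPR2 through Beclin 1 or caveolin-1 had ratios in both directions around a median of 0. Of 14 measured genes of the Beclin 1 and class III phosphatidylinositol kinase complexes and their regulators, 6 were higher, 8 were lower and the median was 0.00. BECN1, which encodes Beclin 1, stood at 0.16 (0.07 to 0.25), with 123 CPM and 110 CPM, and the caveolin gene CAV1 had -0.01 (-0.07 to 0.06). GOPC, a Golgi PDZ protein, was the 1 gene past 1.5-fold, with -0.65 (-0.75 to -0.55). SH3GLB1, a membrane-curving partner of UVRAG, had 0.50 (0.36 to 0.63), and UVRAG 0.26 (0.09 to 0.44).

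CRISPLD2 was nearly silent, and the transcript of the glucocorticoid receptor was present in both columns. Activity of the receptor was not measured. NR3C1, which encodes it, stood at 0.24 (0.17 to 0.31), with 196 CPM after knockdown and 166 CPM in control. Of 18 measured genes listed as responsive to glucocorticoids, NR3C1 included, 6 were higher and 12 lower. By 1.5-fold or more, 1 (5.56%) was higher and 3 (16.7%) were lower, against 7.29% and 9.07% of all measured genes. The median was -0.27. ANGPTL4, which inhibits lipoprotein lipase, had -2.36 (-2.68 to -2.06), the kinase gene SGK1 -1.18 (-1.46 to -0.91), the metallothionein MT1X -0.59 (-0.96 to -0.23), and the transcription factor CEBPD 0.61 (0.46 to 0.76). Of 4 measured genes for LCCL proteins, CRISPLD1 included, 2 were higher and 2 lower. Among those that share the LCCL domain with CRISPLD1 and CRISPLD2, the membrane proteins DCBLD1 and DCBLD2 had -0.73 (-0.82 to -0.64) and -0.20 (-0.25 to -0.16). COCH, a secreted protein of the inner ear, had 0.21 (-0.17 to 0.59). The higher level of CRISPLD1 was not found in these 3 relatives.

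**Figure D4:**
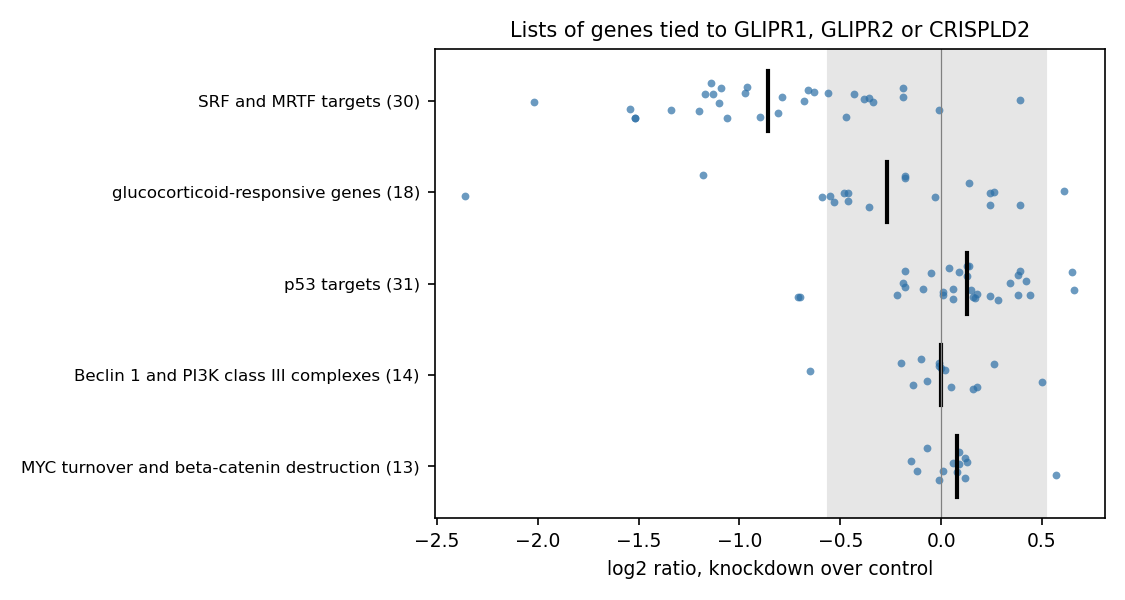
Log2 ratio of knockdown over control for the measured genes (points, with their number in brackets) of 5 lists tied to GLIPR1, GLIPR2 or CRISPLD2. Black bars are list medians, and the grey band runs from the 5th to the 95th percentile of genes with a mean of at least 5 CPM (-0.56 to 0.52). The SRF and MRTF list has its median at -0.86, below the band, and the medians of the other 4 lie inside it. The band describes single genes and not list medians, so a median inside it says little.

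The cells matched their label as an epithelial line. The simple keratins KRT8 and KRT18 had 10479 and 9129 CPM in knockdown, and 8775 and 8071 CPM in control, while EPCAM (4.05 and 4.18 CPM) and KRT19 (1.31 and 2.29 CPM) were low. Surfactant and other alveolar type II markers were low, with a sum of 39.1 CPM in knockdown and 33.8 CPM in control over 8 genes, most of it from the lipid transporter ABCA3. Leukocyte markers summed to 3.10 and 3.04 CPM over 7 genes. Depth was 16635336 reads after knockdown and 20289107 in control, so 1 read was 0.0595 CPM or 0.0498 CPM.

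The ratios of the members were stable to the scaling of the columns and depended on a pseudocount. GLIPR1 was between -2.91 and -2.41 in 6 alternatives, the last with 1 added to the deposited RPKM. CRISPLD1 was 1.43 from its reads but 0.54 with 1 added to its RPKM of 0.96 and 0.35, so it was no longer 2-fold higher there.

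**Figure D5:**
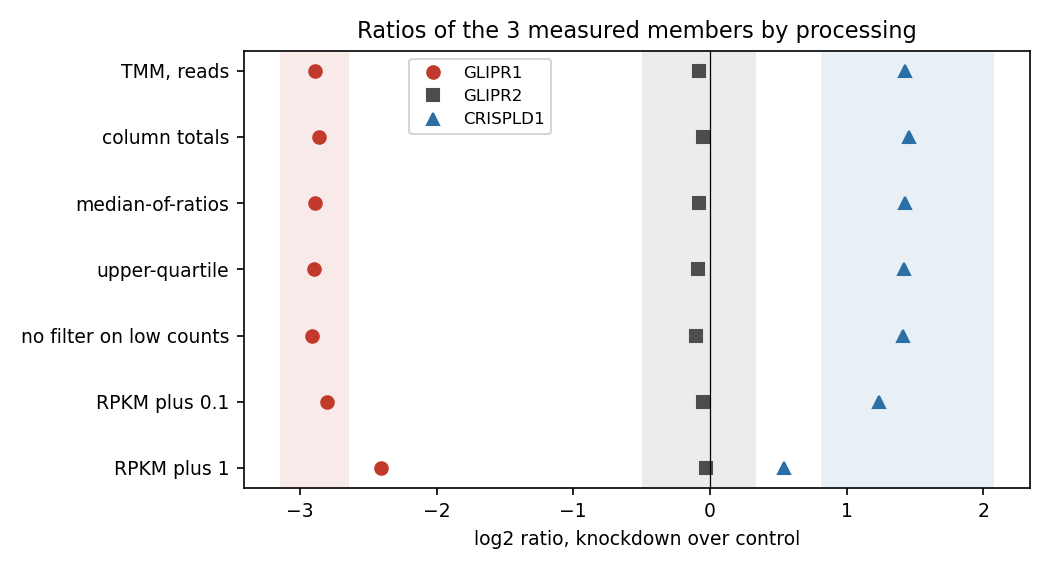
Log2 ratio of knockdown over control for GLIPR1, GLIPR2 and CRISPLD1 under 7 ways of processing, with shaded bands for the 95% counting intervals of the ratios from TMM-scaled reads. All ratios stay inside their band except those of GLIPR1 (-2.41) and CRISPLD1 (0.54) with 1 added to the RPKM.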

How the data were processed

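Read counts per gene were deposited by the authors as whole numbers, 1 column per group, with a table of RPKM values for the same genes. TopHat2 2.0.10, edgeR 3.2.2 and hg19 are named in the submitters' processing notes, with no role or order. The sources used here do not name the counter, the strand setting or the way in which single-end and paired-end libraries were joined. The knockdown column differs by 1 letter from its library titles and was matched by its shared start. There were 0 further columns of values.

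Of 19402 rows, 3 with a broken name or length were left out (0.0872% and 0.0509% of reads), and 26 symbols turned into dates were restored. The filterByExpr filter (minimum count 10, minimum total 15) and TMM factors (1.01 and 0.991) came from edgeR 4.0.16 in R 4.3.3. The median-of-ratios scaling used DESeq2 1.42.0. Intervals used scipy 1.17.1, and no pseudocount was added. With 0 residual degrees of freedom among columns, no test was made. The interval code was tested on simulated data. If both mates of a pair were counted, the intervals are too narrow.

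The members and lists were chosen with earlier results of these data known. The text names the members, all CAP genes in the table, 2 neighbours on each side, known partners or regulators of a member, and markers. It also names up to 4 genes per list with the largest absolute log2 ratio and a mean of at least 5 CPM. The 5 genes nearest to GLIPR1 by ratio and by control level are named too. FOS was named after its value was seen. Gene order came from the RefSeq table of GRCh38.p14 and transcripts from GENCODE release 29, also GRCh38. Alignments used Biopython 1.88 with the BLOSUM62 matrix.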

Additional observations from a re-analysis of the deposited data

How the results depend on the processing

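No paired analysis was possible because each group has a single column of values, and for the same reason the edgeR and DESeq2 tests and leaving out each library were not run. Scaling by column totals, median-of-ratios or upper quartile moved log2 ratios by at most 0.027. With 1 added to the RPKM, GLIPR1 stood at -2.41 and CRISPLD1 at 0.54, because the added value is large beside a low RPKM. GLIPR2 was between -0.10 and -0.03 in 6 alternatives. The number of members at least 2-fold lower was 1 in all 9 alternatives. The number at least 2-fold higher was 0, except that it was 1 with a mean of at least 1 CPM, which lets CRISPLD1 in. Each median of the 6 lists stayed within the binomial interval of the original median in its 6 alternatives, with SRF and MRTF targets between -0.87 and -0.56. For the 4 measured genes for LCCL proteins that interval ran from the lowest to the highest ratio (-0.73 to 1.43), so staying within it says little. Depth limits CRISPLD2 and PI15, which had at most 7 reads in a column.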
